A study of Homo sapiens with 34 samples.

Results

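The genes examined here are those of the DNA methylation and demethylation machinery: the methyltransferases DNMT1, DNMT3A and DNMT3B, the catalytically inactive cofactor DNMT3L, the hemimethylated-DNA reader UHRF1, and the dioxygenases TET1, TET2 and TET3. They were chosen by symbol, and all 8 were found under 1 identifier each among 37951 listed genes. De novo methyltransferases (DNMT3A and DNMT3B) place methyl groups on unmethylated cytosines, and DNMT3L, which has no catalytic activity of its own, stimulates them. UHRF1 recognises hemimethylated sites behind the replication fork and brings in DNMT1, which copies the mark to the new strand. TET enzymes oxidise 5-methylcytosine, and thymine DNA glycosylase and base excision repair can then restore an unmodified cytosine. Primed pluripotent cells are known for high DNMT3B and for hypermethylated genomes.

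The data are RNA-seq libraries of wild-type ESI017, a human embryonic stem cell line in established use, which was sampled under 17 conditions with 2 replicates per condition. Control cells were kept in the pluripotency medium mTeSR PLUS for 48 h by the sample labels. On day 1, in E6 medium, DE(a) cells received activin at 100 ng/ml and the Wnt pathway agonist CHIR at 2 µM. APS (anterior primitive streak) cells received CHIR at 4 µM, with bFGF at 20 ng/ml and activin at 30 ng/ml. For MPS (mid primitive streak) cells CHIR was raised to 6 µM and BMP4 was added at 40 ng/ml, while activin and bFGF stayed as for APS. PPS (posterior primitive streak) cells were given the MPS mixture without activin. Each population was sampled at 24 h or moved for a second day, to 48 h, into 1 of 3 media. DE(b) medium, for definitive endoderm, held activin at 100 ng/ml and the BMP receptor inhibitor LDN at 250 nM. PM medium, for paraxial mesoderm, held bFGF at 20 ng/ml, LDN at 250 nM and the TGFβ receptor inhibitor A8301 at 1 µM according to the methods, and a supplementary legend also lists CHIR. LM medium, for lateral mesoderm, held BMP4 at 30 ng/ml, A8301 at 1 µM and the Wnt secretion inhibitor IWP2 at 4 µM. A condition is written as the day 1 population followed by the day 2 medium, for example APS-PM. All libraries come from this 1 line.

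Levels are given as CPM, a gene's estimated count scaled to a library total of 1000000, which carries no correction for gene length, so levels are compared between conditions and not between genes. Library totals ran from 15522780 to 23439799. Changes are log2 fold changes with standard errors (SE), from 1 edgeR quasi-likelihood model over all 34 libraries, and a gene was called at a Benjamini-Hochberg adjusted p under 0.05 over 17895 tested genes. Supplementary legends of the paper call the 2 RNA-seq replicates biological, while the labels do not say how they were separated. P-values measure the spread between these libraries. In bulk RNA, fewer cells expressing a gene and less of its RNA per cell cannot be told apart, and mRNA levels say nothing directly of protein, activity or methylation. The labelled identities were checked on marker lists. Summed levels of 3 primitive streak markers were 1.58 to 1.86 CPM in control and 1574 to 2955 CPM at 24 h. The 4 endoderm markers summed to 592 to 1483 CPM in DE(b), the 3 paraxial mesoderm markers to 371 to 466 CPM in PM, and the 3 lateral mesoderm markers to 542 to 2393 CPM in LM. The paraxial sum was also 494 to 501 CPM in PPS at 24 h, above every PM library, so it does not mark PM alone, while the endoderm sum outside DE(b) reached 385 CPM and the lateral sum outside LM reached 372 CPM. Within DE(b), 2 of the 4 endoderm markers were lower from PPS than from DE(a) (8.73% of all genes). All 3 paraxial markers were higher there (8.63%). The paper reports that MPS-DE(b) and PPS-DE(b) lacked FOXA2, and PPS-DE(b) also SOX17. DE(b) thus names a medium, and its averages cover populations that differ in these markers.

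DNMT3B (ENSG00000088305; chromosome 20, 32762385 to 32809359, plus strand, GRCh38) fell in every differentiated condition. It stood at 2931 and 2632 CPM in the 2 control libraries. At 24 h it was at 852 and 821 CPM in DE(a), 557 and 647 CPM in APS, 353 and 371 CPM in MPS, and 275 and 336 CPM in PPS. All 8 libraries at 24 h lay below both controls, and the level stepped down from DE(a) to PPS. Averaged over the 4 populations, DNMT3B fell by 2.44 on the log2 scale at 24 h (SE 0.12, edgeR adjusted p = 1.02e-12), to 0.184 of the control level. Of the 8 genes, 5 were called at 24 h against control, 2 higher and 3 lower, while 32.5% of all tested genes were called, 16.9% higher and 15.6% lower.

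Averaged over the 4 day 1 populations, a second day lowered DNMT3B further in PM and LM. In PM the libraries held 397 and 284 CPM (DE(a)), 258 and 211 CPM (APS), 234 and 172 CPM (MPS) and 205 and 154 CPM (PPS). In LM the libraries held 393 and 466 CPM (DE(a)), 373 and 417 CPM (APS), 322 and 325 CPM (MPS) and 230 and 247 CPM (PPS). In DE(b) the libraries held 636 and 593 CPM (DE(a)), 534 and 543 CPM (APS), 405 and 423 CPM (MPS) and 288 and 331 CPM (PPS), within the range at 24 h. Relative to 24 h, DNMT3B fell by 1.16 in PM (SE 0.09, edgeR adjusted p = 3.2e-10) and by 0.55 in LM (SE 0.09, adjusted p = 9.58e-06). For DE(b) the estimate was -0.13 with a 95% interval from -0.31 to 0.04, and it was not called. Within single populations the fall from 24 h was called in 4 of 4 in PM, with values from -1.46 to -0.79. It was called in 2 of 4 in LM, with values from -1.08 to -0.17, and in 1 of 4 in DE(b), with values from -0.52 to 0.12. Among the media, PM was lower than DE(b) by a log2 difference of -1.02 (adjusted p = 1.76e-09), LM lower than DE(b) by -0.42 (adjusted p = 0.000384), and LM higher than PM by 0.60 (adjusted p = 4.53e-06). The library ranges of the media overlapped because the day 1 populations spread each of them, and within single populations DNMT3B was called lower in PM than in DE(b) in 4 of 4, where 10.6% (DE(a)), 11.9% (APS), 11.5% (MPS) and 9.76% (PPS) of all genes were lower. It was called lower in LM than in DE(b) in 1 of 4, with values from -0.56 to -0.30. LM was called higher than PM in 3 of 4, with values from 0.34 to 0.81.

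**Figure D1:**
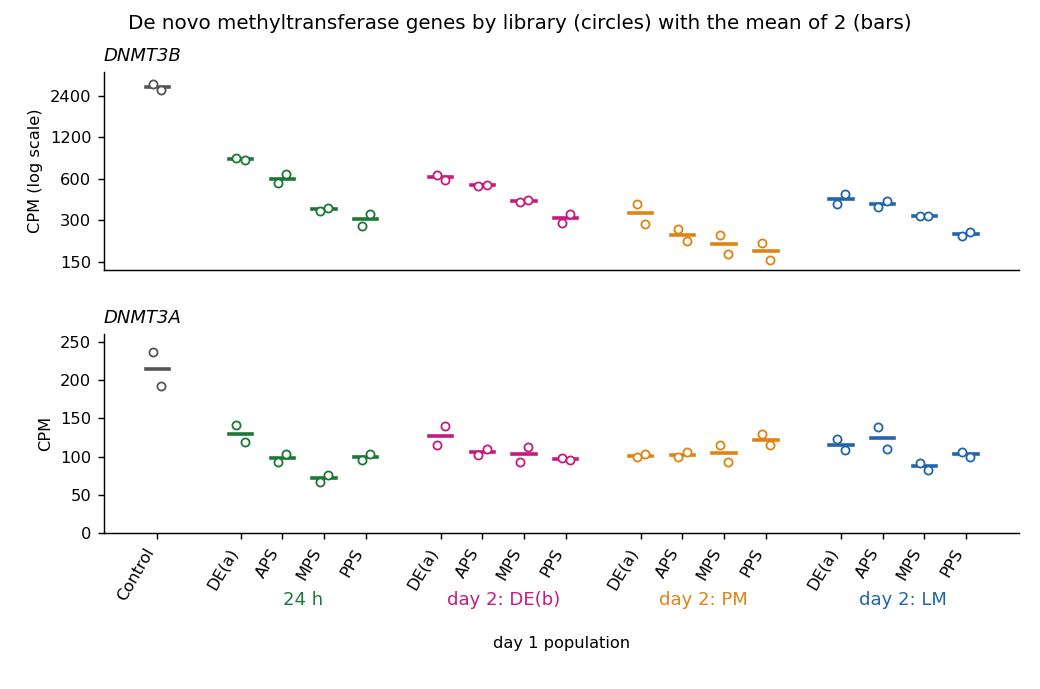
Levels of DNMT3B (log axis, CPM) and DNMT3A (linear axis, CPM) in each library (circles) and their mean (bars), by day 1 population at 24 h and in each day 2 medium. DNMT3B is near 2781 CPM in control and steps down from DE(a) to PPS in all 4 blocks, while DNMT3A is at 193 to 237 CPM in control and 67.2 to 141 CPM elsewhere.

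A fixed list of 11 pluripotency symbols was carried by 14 identifiers. POU5F1 was among the symbols with more than 1 identifier, so the counts below are of identifiers and can hold 1 gene more than once. Their summed level was 8112 to 8166 CPM in control, 3828 to 5202 CPM at 24 h, 2551 to 4036 CPM in DE(b), 1902 to 2659 CPM in PM and 1759 to 2846 CPM in LM. At 24 h, 8 of the 14 identifiers were lower and 1 higher than in control (15.6% and 16.9% of all genes), with a median log2 change of -0.93. In DE(b) against 24 h, where DNMT3B was not called, 12 were lower and 2 higher (26.2% and 24.8% of all genes, median -0.96). In LM against PM, where DNMT3B was higher, 3 were higher and 3 lower (21% of all genes each way, median 0.10). Their part in the DNMT3B result was not tested. SOX2 and NANOG, both core pluripotency factors, had the largest called changes of the list at 24 h, with log2 fold changes of -6.64 (SOX2, adjusted p = 2.43e-10) and -1.93 (NANOG, adjusted p = 6.12e-05).

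DNMT3A (ENSG00000119772; chromosome 2, 25227855 to 25342590, minus strand), the other de novo enzyme, was at 237 and 193 CPM in control. At 24 h it was at 141 and 119 CPM in DE(a), 93.2 and 103 CPM in APS, 67.2 and 76.2 CPM in MPS, and 95.6 and 103 CPM in PPS. Every 24 h library was below both controls, with MPS the lowest condition of all 17. The average change was -1.06 on the log2 scale (SE 0.10, edgeR adjusted p = 2.24e-08). On the second day DNMT3A ran from 93.3 to 140 CPM in DE(b), 92.9 to 129 CPM in PM and 82.6 to 139 CPM in LM. Averaged over the 4 day 1 populations, none of the 6 comparisons among these media and 24 h was called, with estimates from -0.07 to 0.11. Within single populations, PM against 24 h was called lower in 1 of 4 and higher in 1 of 4, with values from -0.49 to 0.43. DE(b) against 24 h was called higher in 1 of 4, with values from -0.10 to 0.45. PM against DE(b) was called lower in 1 of 4, with values from -0.39 to 0.26. LM against 24 h, DE(b) or PM was called in 0 of 4. Both de novo genes were below control in 16 of 16 conditions, comparisons that share the 2 control libraries and in which 8.68% to 20.5% of all genes were lower. The ratio of DNMT3B to DNMT3A CPM was 12.4 and 13.7 in control, 2.88 to 6.89 at 24 h, 2.95 to 5.55 in DE(b), 1.35 to 4.01 in PM and 2.17 to 4.29 in LM.

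DNMT3L (ENSG00000142182; chromosome 21, 44246339 to 44262216, minus strand) was close to absent. Its estimated count was 2 and 6 in the control libraries, at or under 3 in 19 of 34 libraries, and 0 in 12 of them. The highest counts were 24.0 and 10.6 in DE(a)-DE(b), 16.5 in 1 PPS-24h library, and 14 and 11.4 in DE(a)-24h. Both libraries of MPS-DE(b), MPS-PM, MPS-LM and PPS-LM were at 0, which allows up to 3 counts per library and covers counting error only. DNMT3L passed the filter on low counts through the conditions where it is highest, so its calls as lower in PM and LM against 24 h are counted below without a fold change.

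The maintenance genes DNMT1 (ENSG00000130816; chromosome 19, 10133342 to 10231286, minus strand) and UHRF1 (ENSG00000276043; chromosome 19, 4903080 to 4962154, plus strand) were on average lower in DE(b) and LM than in PM. DNMT1 was at 339 and 317 CPM in control and ran from 293 to 411 CPM at 24 h, so the groups overlapped, and the change of 0.13 (95% interval -0.13 to 0.39) was not called. It then ran from 187 to 275 CPM in DE(b), 314 to 413 CPM in PM and 222 to 282 CPM in LM. Every DE(b) and every LM library was below every 24 h and every PM library. DNMT1 fell by 0.61 in DE(b) (SE 0.08, edgeR adjusted p = 1.05e-06) and by 0.46 in LM (SE 0.08, adjusted p = 2.91e-05) against 24 h, while the change in PM was 0.05 (95% interval -0.11 to 0.21). PM was higher than DE(b) by 0.66 (adjusted p = 3.83e-07), and LM was lower than PM, with a log2 difference of -0.51 (adjusted p = 1.27e-05). Within single populations each of these was called in 3 of 4, with values from 0.40 to 0.84 and from -0.62 to -0.41.

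UHRF1 was at 113 and 86.0 CPM in control and from 117 to 171 CPM at 24 h, with no overlap. It rose by 0.50 at 24 h (SE 0.15, edgeR adjusted p = 0.0163), but without control replicate 2 the change was 0.31 with an adjusted p of 0.316. In PM it ran from 135 to 193 CPM, in DE(b) from 86.3 to 146 CPM and in LM from 88.3 to 120 CPM. Relative to 24 h, UHRF1 rose by 0.31 in PM (adjusted p = 0.0101), fell by 0.37 in DE(b) (adjusted p = 0.00224) and fell by 0.41 in LM (adjusted p = 0.000813). Within single populations the rise in PM was called in 0 of 4, with values from 0.22 to 0.46. The falls were called in 2 of 4 each, with values from -0.79 to 0.03 in DE(b) and from -0.61 to -0.17 in LM. PM was above DE(b) by 0.68 (adjusted p = 3.57e-06), and LM was below PM in all libraries, with a difference of -0.72 (adjusted p = 1.71e-06). Within single populations PM was called above DE(b) in 3 of 4, with values from 0.20 to 1.01. PPS-DE(b), at 137 and 146 CPM, was above the lowest PM library at 135 CPM. Over the 17 condition means, log2 levels of UHRF1 and DNMT1 had a Pearson correlation of 0.84, a description over points that share libraries.

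The RefSeq promoter table (GRCh38.p14) held entries for 7 of the 8 genes, covering 250 bases before to 50 after each start. The letters of the E2F site, the element of many replication genes, were searched in them as TTTGGCGC, TTTCCCGC, TTTCGCGC and TTTGCCGC on both strands. They were found in DNMT1 and UHRF1 only, and in 3.31% of all 35116 promoters of this length. The promoters with these letters are printed 5′ to 3′ on the gene's strand, with the match in capitals, since these 2 genes move together. The match begins 2 bases before the start in DNMT1, where it reads as the reverse complement, and 14 (also as the reverse complement) and 160 bases before the start in the 2 UHRF1 entries with a match. A further UHRF1 entry, chr19:4910117-4910416, had no match. A gene was counted when any of its entries matched, while the shares are per promoter.
DNMT1, chr19:10194904-10195203, minus strand: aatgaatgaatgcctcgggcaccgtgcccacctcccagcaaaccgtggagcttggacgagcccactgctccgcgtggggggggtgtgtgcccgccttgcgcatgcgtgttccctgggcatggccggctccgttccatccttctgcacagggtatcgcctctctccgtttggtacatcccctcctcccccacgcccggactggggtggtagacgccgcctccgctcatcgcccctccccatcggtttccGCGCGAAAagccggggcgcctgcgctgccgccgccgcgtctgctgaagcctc
UHRF1, chr19:4909251-4909550, plus strand: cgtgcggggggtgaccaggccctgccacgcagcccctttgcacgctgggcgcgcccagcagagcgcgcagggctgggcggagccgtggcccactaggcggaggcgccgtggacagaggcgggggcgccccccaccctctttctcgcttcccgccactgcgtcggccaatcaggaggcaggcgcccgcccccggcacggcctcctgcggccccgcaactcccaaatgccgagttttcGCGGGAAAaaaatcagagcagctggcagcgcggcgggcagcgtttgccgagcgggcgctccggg
UHRF1, chr19:4909894-4910193, plus strand: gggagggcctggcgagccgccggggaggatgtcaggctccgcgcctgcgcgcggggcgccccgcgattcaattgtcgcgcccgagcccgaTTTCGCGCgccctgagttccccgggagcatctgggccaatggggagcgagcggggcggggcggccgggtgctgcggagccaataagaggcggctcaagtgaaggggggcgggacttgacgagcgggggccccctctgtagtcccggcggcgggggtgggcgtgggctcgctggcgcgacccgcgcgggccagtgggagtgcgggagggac
A match describes these letters and shows no binding. The 2 UHRF1 entries printed are alternative starts, and the CCAAT box letters (CCAAT), found in 34.6% of promoters, occurred in DNMT3B, UHRF1, TET1 and TET3, the E box letters (CACGTG), found in 7.26%, in DNMT3A, TET2 and TET3, and the TATA box letters (TATAAA), found in 11.5%, in TET1.

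Averaged over the 4 day 1 populations, most genes of a DNA replication list were lower in DE(b) and LM than in PM, as were DNMT1 and UHRF1. The summed level of 16 S phase genes was 3289 to 3546 CPM in control, 2662 to 3086 CPM at 24 h, 1706 to 2235 CPM in DE(b), 2457 to 2799 CPM in PM and 1712 to 2343 CPM in LM. Of these, 14 were lower and 0 higher in DE(b) than at 24 h, with a median log2 change of -0.56 against -0.02 over all genes, of which 26.2% were lower and 24.8% higher. In LM 14 of 16 were lower than at 24 h (28.6% of all genes), in PM 11 of 16 were higher than in DE(b) (21.6%), and in LM 13 of 16 were lower than in PM (21%). In PM against 24 h, where UHRF1 rose and DNMT1 was not called, 6 of 16 were lower and 2 higher (25.1% and 23.2% of all genes), with a median of -0.14. RRM2, a subunit of ribonucleotide reductase, and MCM5, a subunit of the replicative helicase, had the largest called changes in DE(b) against 24 h, at -0.90 (RRM2, adjusted p = 1.11e-08) and -0.86 (MCM5, adjusted p = 2.96e-09). Whether these genes have a part in the DNMT1 and UHRF1 results was not tested. At 24 h 4 of 16 were higher and 4 lower than in control (16.9% and 15.6% of all genes, median -0.23). Every summed value at 24 h lay below both controls, while UHRF1 rose and DNMT1 was not called.

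**Figure D2:**
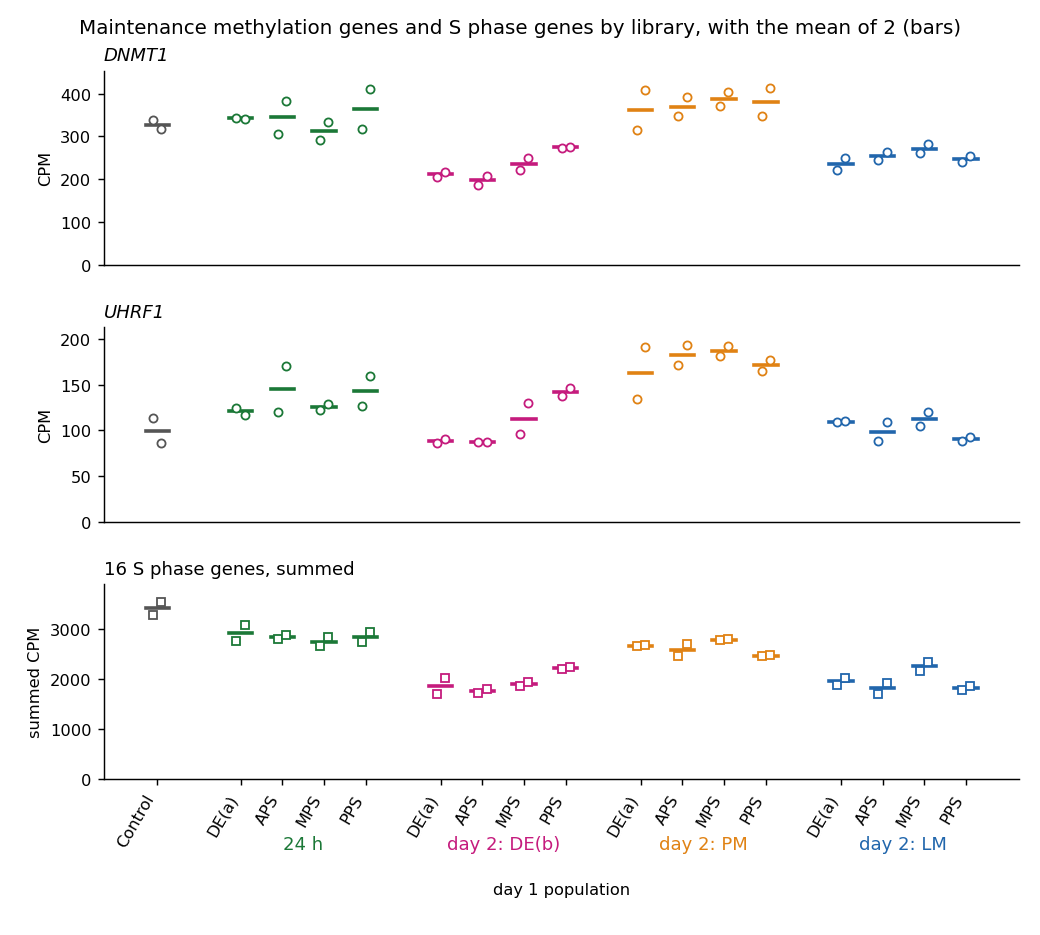
Levels of DNMT1 and UHRF1 (CPM) and the summed level of 16 S phase genes (summed CPM) in each library (open symbols) with their mean (bars), on linear axes from 0. All 3 are on average lower in DE(b) and LM than in PM, where DNMT1 runs from 314 to 413 CPM and UHRF1 from 135 to 193 CPM. UHRF1 in PPS-DE(b), at 137 and 146 CPM, is above the lowest PM library.

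TET2 (ENSG00000168769; chromosome 4, 105145875 to 105279816, plus strand), a TET enzyme without a CXXC domain of its own, was lowest in control and rose in every other condition. It was at 4.29 and 4.47 CPM in control. At 24 h it was at 7.57 and 10.2 CPM in DE(a), 10.03 and 16.2 CPM in APS, 19.9 and 21.1 CPM in MPS, and 19.8 and 27.9 CPM in PPS. All 8 libraries were above both controls, and the higher values were those of MPS and PPS. The average rise was 1.89 on the log2 scale (SE 0.23, edgeR adjusted p = 9.55e-07), which is 3.71-fold. On the second day TET2 was at 15.4 to 25.2 CPM in DE(b), 14.1 to 22.1 CPM in PM and 20.9 to 36.7 CPM in LM. It rose by a further 1.03 in LM (SE 0.12, adjusted p = 2.88e-07) and by 0.37 in DE(b) (SE 0.12, adjusted p = 0.0155) relative to 24 h, and the value for PM was 0.05 (95% interval -0.21 to 0.30). The rise in DE(b) was called in 1 of 4 populations, DE(a) at 1.02, with -0.08 in MPS and 0.07 in PPS, and the rise in LM in 2 of 4, with values from 0.56 to 1.53. LM was above DE(b) by 0.66 (adjusted p = 0.00014) and above PM by 0.98 (adjusted p = 7.81e-07). TET2 was above control in 16 of 16 conditions, again with the 2 control libraries shared, where 10.3% to 22.9% of all genes were higher.

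The difference of TET2 between PM and DE(b), -0.32 (edgeR adjusted p = 0.0376), was called but was lost when any of 10 of the 16 libraries was left out, with an adjusted p of up to 0.11. It was kept without replicate 1 of DE(a)-DE(b), APS-DE(b), PPS-DE(b) or PPS-PM and without replicate 2 of APS-PM or MPS-PM. An antisense gene, TET2-AS1, overlaps TET2, and the sources used here do not state whether quantification used strand, so reads of the pair may not be fully separated. The same holds for MIR4322 within DNMT1, DNMT3L-AS1 at DNMT3L and an unnamed antisense gene at TET3.

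TET1 (ENSG00000138336; chromosome 10, 68560337 to 68694487, plus strand), the TET enzyme typical of pluripotent cells, was at 119 and 146 CPM in control. At 24 h it was at 55.8 and 102 CPM in DE(a), 74.4 and 104 CPM in APS, 69.7 and 93.0 CPM in MPS, and 68.6 and 90.5 CPM in PPS. All 8 lay below both controls, but replicates of a condition differed widely, most in DE(a). The change of -0.62 (SE 0.17, edgeR adjusted p = 0.00783) was called, and it was -0.47 with an adjusted p of 0.172 without control replicate 2. In LM the level turned upward, at 167 and 234 CPM (DE(a)), 174 and 160 CPM (APS), 118 and 139 CPM (MPS), and 91.7 and 110 CPM (PPS). Averaged over the 4 populations, TET1 in LM was above 24 h by 0.78 (SE 0.12, adjusted p = 4.8e-06), above DE(b) by 0.88 (adjusted p = 1.69e-06) with no overlap of libraries, and above PM by 0.57 (adjusted p = 0.000289). Within single populations the rise was called in 3 of 4 against 24 h (0.39 to 1.23) and in 3 of 4 against DE(b) (0.26 to 1.25). Against PM it was called in 2 of 4, with values from -0.06 to 0.94. For PPS, LM was at 91.7 and 110 CPM and PM at 107 and 115 CPM. TET1 ran from 66.4 to 86.6 CPM in DE(b) and from 90.7 to 115 CPM in PM, and did not overlap between them either. That difference, 0.30 (adjusted p = 0.0364), was lost when any of 11 of the 16 libraries was left out, with an adjusted p of up to 0.0811, and was kept without MPS-DE(b) replicate 2 or without replicate 1 of any PM condition.

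Markers of amnion also moved in LM. The 6 amnion markers, which include TFAP2A, GATA3 and ISL1, were all higher in LM than in PM (21% of all genes) and than in DE(b) (19.8%). Of the 6, 5 were higher than at 24 h (27.4%). The paper also uses ISL1 as a lateral mesoderm marker, so this list does not mark amnion alone. The summed level of the 6 was 3.89 to 5.00 CPM in control, 9.25 to 160 CPM at 24 h, 1.92 to 24.3 CPM in DE(b), 1.35 to 13.2 CPM in PM and 78.9 to 463 CPM in LM. Within LM the mean sum was 261 CPM in DE(a)-LM, 98.3 CPM in APS-LM, 103 CPM in MPS-LM and 399 CPM in PPS-LM. The part of such cells in the TET1 and TET2 results was not tested. VTCN1 and GABRP are other members of the list.

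TET3 (ENSG00000187605; chromosome 2, 73984910 to 74108176, plus strand) was lower in PM and LM than at 24 h. It was at 81.3 and 71.2 CPM in control and from 61.8 to 132 CPM at 24 h, with PPS highest at 105 and 132 CPM, and the average change of 0.23 (95% interval -0.18 to 0.64) was not called. It ran from 58.7 to 97.6 CPM in DE(b), 54.2 to 97.1 CPM in PM and 46.6 to 74.3 CPM in LM. TET3 fell by 0.44 in PM (SE 0.12, edgeR adjusted p = 0.00526) and by 0.49 in LM (SE 0.12, adjusted p = 0.00194) relative to 24 h, and the groups overlapped. Within single populations each was called in 1 of 4, PPS, with values from -1.01 to 0.16 in PM and from -0.75 to -0.24 in LM. Replicate 2 was the higher library in 16 of 17 conditions for TET3, 15 for TET1, 15 for DNMT1 and 14 for UHRF1, against 10 for DNMT3B and 8 for DNMT3A. The ratio of TET1 to TET2 CPM was 27.8 and 32.8 in control and 2.88 to 9.95 in all other libraries.

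**Figure D3:**
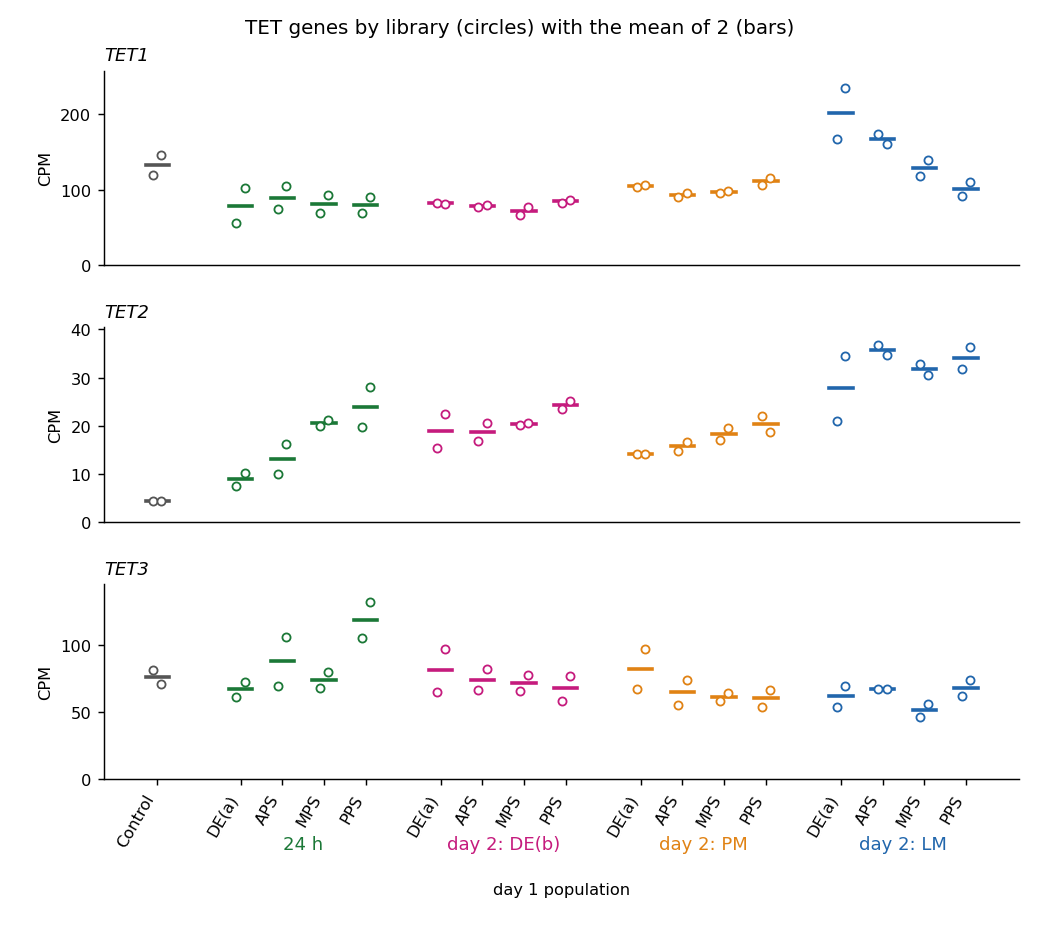
Levels of TET1, TET2 and TET3 (CPM, linear axes from 0) in each library (circles) and their mean (bars). TET2 is at 4.29 and 4.47 CPM in control and highest in LM, TET1 is highest in LM from DE(a) and APS, and TET3 is highest in PPS at 24 h.

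In the day 2 comparisons the share of the 8 genes that was called lay above the share of all genes in some and below it in others. DE(b) against 24 h called 3 of 8 (DNMT1, UHRF1 and TET2) where 51% of all genes were called. With DNMT3L left out, PM against 24 h called 3 of 7 (DNMT3B, TET3 and UHRF1) where 48.2% were, and LM against 24 h called 6 of 7, all but DNMT3A, where 56% were. DNMT3L was called lower in both but passed the filter only where it is highest. PM against DE(b) called 5 (background 43%), LM against DE(b) called 3 (39.6%), and LM against PM called 5 (42%).

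**Figure D4:**
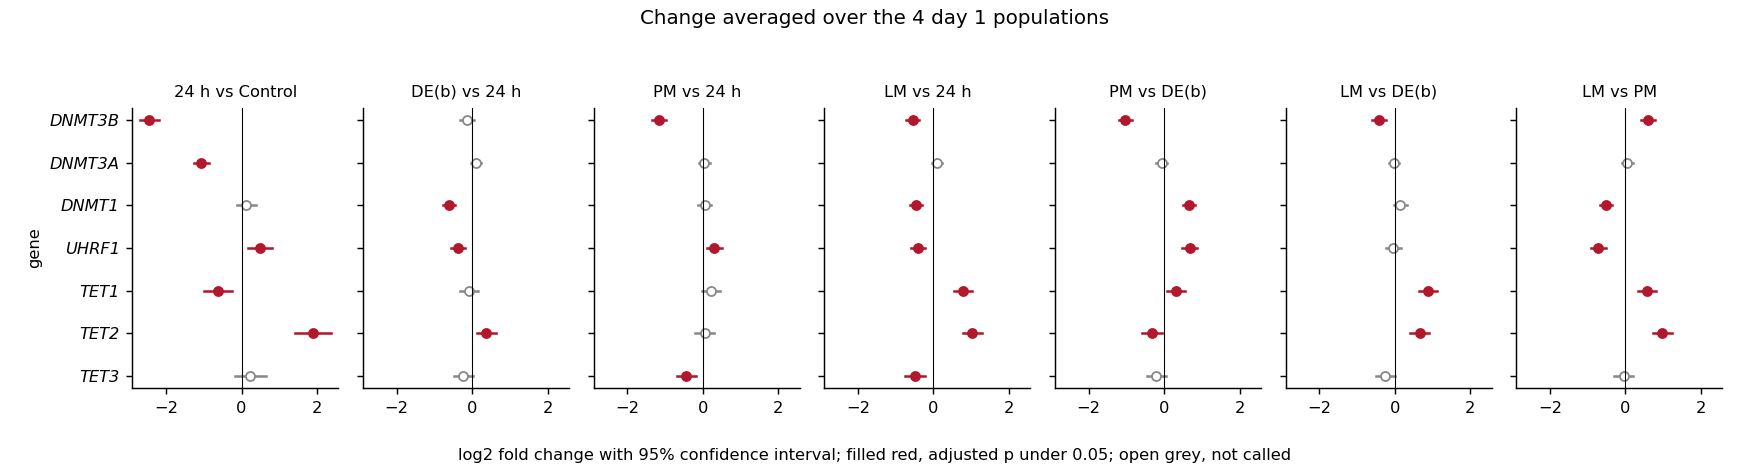
Log2 fold changes (x axis) of 7 genes, DNMT3L left out, in 7 comparisons averaged over the 4 day 1 populations, with 95% confidence intervals (lines). Filled red points were called at an adjusted p under 0.05. DNMT3B is at -2.44 at 24 h against control, and DNMT1 and UHRF1 are both lower in DE(b) and LM than at 24 h, while in PM UHRF1 alone of the pair is called, at 0.31.

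DNMT3B differed between the day 1 populations at 24 h and after a second day. Its condition means ran DE(a), APS, MPS, PPS from highest to lowest at 24 h and in each of the 3 media. PPS against DE(a), the 2 ends of the day 1 series, differed by -1.53 at 24 h (SE 0.17, edgeR adjusted p = 1.48e-06), -0.95 in DE(b) (SE 0.17, adjusted p = 0.000455), -0.90 in PM (SE 0.17, adjusted p = 0.00159) and -0.76 in LM (SE 0.17, adjusted p = 0.00354). A joint test of the 4 populations was also called in all 4 settings for DNMT3B, with an adjusted p of 2.38e-06 at 24 h, 0.00152 in DE(b), 0.00913 in LM and 0.00449 in PM. In PM and LM these calls rested on few libraries, and with only the libraries compared in the fit the adjusted p was 0.157 for PPS against DE(a) in PM, and 0.25 (PM) and 0.053 (LM) for the joint test. The PM difference was -0.66 (adjusted p = 0.0665) without DE(a)-PM replicate 1 and -0.73 (adjusted p = 0.0524) without PPS-PM replicate 2. In LM it was -0.68 (adjusted p = 0.0578) without PPS-LM replicate 1 and -0.58 (adjusted p = 0.0694) without DE(a)-LM replicate 2.

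The joint test for DNMT3B in PM had an adjusted p of 0.171 without DE(a)-PM replicate 1, and in LM of 0.112 and 0.0527 without PPS-LM replicate 1 and 2. Of neighbouring populations, MPS against APS at 24 h was called for DNMT3B, at -0.72 (SE 0.17, edgeR adjusted p = 0.0208), where 2.93% of genes were called. That call was lost without any 1 of the 4 libraries, with adjusted p from 0.0516 to 0.226. The other 11 neighbour comparisons called none of the 8 genes by the edgeR test. Over all genes, APS against DE(a) called 0.732% at 24 h, 0.469% in DE(b), 4.58% in LM and 0.0559% in PM. MPS against APS called 1.31% in DE(b), 3.79% in LM and 0.447% in PM, and PPS against MPS called 6.14% at 24 h, 5.93% in DE(b), 5.6% in LM and 1.03% in PM.

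Of the other genes, 3 differed between PPS and DE(a) at 24 h, making 4 of 8 with DNMT3B, while 20.9% of all genes were called. TET2 was higher in PPS by 1.35 (SE 0.25, edgeR adjusted p = 0.000491), with both PPS libraries above both DE(a) libraries. DNMT3A was lower, at -0.46 (SE 0.13, adjusted p = 0.0174). It was -0.33 (adjusted p = 0.196) without DE(a)-24h replicate 1 and -0.41 (adjusted p = 0.0924) without PPS-24h replicate 1. TET3 was higher by 0.74 (SE 0.25, adjusted p = 0.0358). It was 0.63 (adjusted p = 0.208) and 0.88 (adjusted p = 0.0603) without DE(a)-24h replicate 1 and 2, and 0.57 (adjusted p = 0.235) without PPS-24h replicate 2. The joint test of the 4 populations at 24 h called DNMT3A (adjusted p = 0.000622), DNMT3B and TET2 (adjusted p = 0.00119), where 18.8% of genes were called.

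In the day 2 media, PPS against DE(a) called 2 in DE(b) (background 17.4%), 1 in PM (8.61%) and 2 in LM (14.3%). UHRF1 in DE(b) was at 137 and 146 CPM when day 1 was PPS and at 86.3 and 90.8 CPM when it was DE(a), a difference of 0.72 (SE 0.19, edgeR adjusted p = 0.0104). It was 0.69 (adjusted p = 0.055) without DE(a)-DE(b) replicate 1 and 0.67 (adjusted p = 0.0701) without PPS-DE(b) replicate 2. In the same comparison 5 of 16 S phase genes were higher and 0 lower (8.63% of all genes were higher), and their summed level was 2206 and 2235 CPM from PPS against 1706 and 2032 CPM from DE(a). TET1 in LM was lower from PPS than from DE(a), at -0.90 (SE 0.23, adjusted p = 0.00886). It was -0.75 (adjusted p = 0.127) without PPS-LM replicate 1 and -0.59 (adjusted p = 0.177) without DE(a)-LM replicate 2.

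Joint tests over the 4 populations called DNMT3B and UHRF1 (adjusted p = 0.0165) in DE(b), where 16.6% of genes were called, DNMT3B alone in PM (7.47%), and DNMT3B and TET1 (adjusted p = 0.0277) in LM (19.6%), by the edgeR quasi-likelihood test. For UHRF1 in DE(b) the adjusted p was 0.0772 and 0.126 without PPS-DE(b) replicate 1 and 2. For TET1 in LM it was 0.175 and 0.0566 without PPS-LM replicate 1 and 2, and 0.126 without DE(a)-LM replicate 2. The interaction of day 1 and day 2 over the 12 day 2 conditions called 0 of the 8 genes by the edgeR test, where 13.1% of all genes were called, with 2 of 8 at an unadjusted p under 0.05 and 1 called by DESeq2. With the replicate number as a block 2 were called, TET1 (adjusted p = 0.019) and UHRF1 (adjusted p = 0.0345), and the same 2 with no filter on low counts.

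**Figure D5:**
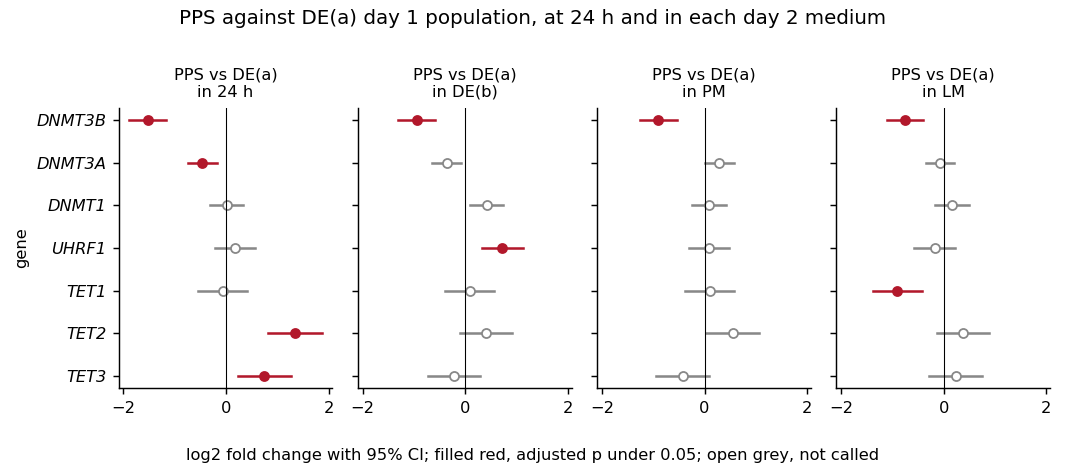
Log2 difference of PPS from DE(a) (x axis) for 7 genes at 24 h and in each day 2 medium, with 95% confidence intervals (lines) and called values in filled red. DNMT3B is below 0 and called in all 4 panels, from -1.53 at 24 h to -0.76 in LM.

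Other genes of the pathway were taken from fixed lists. Beside their counts at 24 h against control, 16.9% of all tested genes were higher and 15.6% lower. Of 8 methyl-CpG readers, 5 were higher and 0 lower at 24 h than in control, with a median log2 change of 0.40 against 0.01 over all genes. ZBTB38, a zinc finger protein that binds methylated DNA, rose by 2.75 (edgeR adjusted p = 1.72e-10), from 12.1 and 12.9 CPM in control to 131 and 142 CPM in MPS, its highest 24 h condition. ZBTB4, a related reader, rose by 0.49 (adjusted p = 0.0244), and its adjusted p was 0.181 and 0.109 without control replicate 1 and 2. Among 13 genes of oxidised base excision and repair, 5 were higher and 1 lower, led by GADD45B at 2.94 (adjusted p = 4.35e-08) and GADD45A at 1.86 (adjusted p = 2.71e-07), stress-response genes that have been linked to demethylation. GADD45B was at 47.7 and 66.1 CPM in DE(a) and at 3.73 and 6.39 CPM in PPS, against 2.61 and 2.90 CPM in control.

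Regulators of DNMT and TET access, 13 symbols under 15 identifiers, had 2 higher and 4 lower at 24 h (16.9% and 15.6% of all genes), with a median of -0.28. PRDM14, which is part of the human pluripotency network, fell by 4.75 on the log2 scale (edgeR adjusted p = 4.69e-13), from 136 and 140 CPM in control to 1.38 and 1.81 CPM in PPS. QSER1, which has been described as a guard of TET1-bound regulatory regions against de novo methylation, fell by 0.86 (adjusted p = 1.81e-07), from 307 and 315 CPM in control to 145 and 145 CPM in PPS. Of 8 maintenance and ICF partners (genes tied to replication-coupled methylation or to the immunodeficiency syndrome ICF), 2 were higher and 2 lower at 24 h, with the same shares over all genes. HELLS, a chromatin remodeller needed for methylation of repeats, fell by 0.76 (adjusted p = 0.000184). PCLAF, which binds the replication clamp, rose by 0.74 (adjusted p = 0.0431), a call lost when any of 7 of the 10 libraries was left out, with an adjusted p of up to 0.248; it was kept without replicate 2 of DE(a)-24h, APS-24h or PPS-24h.

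On the second day 6 of 8 partners were lower in DE(b) than at 24 h and 0 higher (26.2% of all genes were lower), 4 were higher in PM than in DE(b) and 0 lower (21.6% higher), and 5 were lower in LM than in PM and 0 higher (21% lower). CDCA7, which recruits HELLS to hemimethylated DNA, was 0.61 higher in PM than in DE(b) (edgeR adjusted p = 7.77e-08) and differed by -0.85 in LM from PM (adjusted p = 4.98e-10). PCNA, the sliding clamp itself, was 0.57 higher in PM than in DE(b) (adjusted p = 0.000446). Of 13 methyl donor and cofactor enzymes, 12 were tested, and 2 were higher and 2 lower at 24 h (16.9% and 15.6% of all genes). Among them were SHMT1 of the folate cycle at 0.86 (edgeR adjusted p = 4.87e-05) and MAT2B, the regulatory subunit of methionine adenosyltransferase, at -0.85 (adjusted p = 0.000522). In LM against 24 h 3 of 12 were higher and 7 lower, where 27.4% of all genes were higher and 28.6% lower. AHCYL1, a relative of adenosylhomocysteinase, was at 1.12 (adjusted p = 3.26e-10) and MTAP of the methionine salvage pathway at -0.99 (adjusted p = 1.82e-09).

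Germline genes whose promoters are kept silent by DNA methylation in somatic cells stayed low. Of 10 on the list 6 passed the filter, and the summed level of all 10 ran from 2.66 to 9.81 CPM over the 34 libraries. At 24 h against control 1 was higher and 1 lower (16.9% and 15.6% of all genes). In PM against 24 h 2 were higher and 0 lower (23.2% and 25.1%), and in LM against 24 h 0 were higher and 2 lower (27.4% and 28.6%). All of these genes were below 10 CPM in every condition.

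The genes whose pattern over the 17 condition means was most like each member's were found by Pearson correlation of log2(CPM + 1) among 11971 genes that averaged 5 CPM or more, as a description. For DNMT1 they were RBL1, DDIAS and PRKDC, with a correlation of 0.95 to 0.96. For UHRF1 they were TBX6, FEN1 and COTL1 (each 0.93). DNMT3B was most like PRDM14 (0.96), SEPHS1 (0.96) and DPPA4 (0.95), and DNMT3A most like ACAD8 (0.92), PRR12 (0.91) and IQSEC2 (0.89). For TET1 these were FOXP1 (0.91), CCDC74A (0.89) and CA8 (0.88), for TET2 TMF1 (0.96), CHD3 (0.95) and AHNAK (0.94), and for TET3 PHLPP2 (0.81) and AIFM2 (0.81). All points of a pair come from the same libraries.

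Ordered by level, the 17 conditions spanned a 15.5-fold range of means for DNMT3B (PPS-PM lowest, control highest) and an 8.15-fold range for TET2 (control lowest, APS-LM highest). The range was 2.99-fold for DNMT3A (MPS-24h to control), 2.81-fold for TET1 (MPS-DE(b) to DE(a)-LM), 2.31-fold for TET3 (MPS-LM to PPS-24h), 2.15-fold for UHRF1 (APS-DE(b) to MPS-PM) and 1.96-fold for DNMT1 (APS-DE(b) to MPS-PM). Of the 16 neighbouring pairs in each order, 6 did not overlap for DNMT3B, 5 for TET1, 3 each for DNMT1, DNMT3A and TET2, 1 for UHRF1 and 0 for TET3. For DNMT3B the separated steps included those from control to DE(a)-24h and from DE(a)-24h to DE(a)-DE(b), and for TET2 the step from control to DE(a)-24h.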

How the data were processed

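Poly(A) RNA of 34 libraries (17 conditions, 2 replicates each) was sequenced from stranded libraries. The authors deposited estimated counts per gene, which per their processing notes came from Salmon 1.10.2 (quasi-mapping to GRCh38 transcripts, correcting for GC and sequence bias) and were summed per gene in R 4.4.2. Use of strand in quantification is not given in the sources used here. These deposited values, rounded to integers, were fitted with edgeR 4.0.16 (quasi-likelihood test, TMM factors, R 4.3.3) in 1 model with a term per condition. Genes were kept with edgeR's filter on low counts, leaving 17895 of 37951, and p-values were adjusted over all of them. Comparisons averaged over the 4 day 1 populations weight these equally. CPM values use library totals, which ran from 15522780 to 23439799, and a count of 0 allows up to 3 counts, which covers counting error only. The code was tested on simulated data. Groups came from the sample labels.

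The members, lists and comparisons were chosen with earlier results of these data known. Named from each list were the 2 genes with the largest absolute log2 fold change among those called in the comparison described and over 10 CPM in a condition. For likeness, the 3 genes with the highest correlation were named, except that 1 gene for TET3 is not reported here. Alternatives were RLE size factors, no filter on low counts, DESeq2 1.42.0, a replicate block, a fit of only the libraries compared, each library left out in turn, and another pseudocount for likeness. Replicate numbers were not treated as pairing the samples. Promoter sequences came from RefSeq (GRCh38.p14), and gene positions from GENCODE on GRCh38.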

Additional observations from a re-analysis of the deposited data

Results flagged for a closer look

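The difference of PPS from DE(a) itself differed between settings for 4 genes, by an edgeR test of the difference of the 2 log2 changes. For DNMT3A it was -0.46 at 24 h and 0.29 in PM, a difference of -0.75 (adjusted p = 0.0159, with 7.83% of all genes called), which was lost without 4 of the 8 libraries, with an adjusted p of up to 0.0809. Also for DNMT3A, the change in DE(b) minus that in PM was -0.65 (adjusted p = 0.0386, 7.71% of genes called), lost without 7 of the 8 libraries (up to 0.227). For TET3, which was at 0.74 at 24 h and -0.43 in PM, the difference was 1.17 (adjusted p = 0.0415), lost without 6 of the 8 libraries (up to 0.21). For DNMT3B the change at 24 h minus that in LM was -0.77 (adjusted p = 0.0364, 13.6% of genes called), lost without 6 of 8 (up to 0.158). For UHRF1 the change in LM minus that in DE(b) was -0.90 (adjusted p = 0.0369, 8.99% of genes called), and it was lost without any 1 of the 8 libraries (up to 0.121). The joint interaction test over the 12 day 2 conditions called none of the 8 genes by edgeR, with 2 at an unadjusted p under 0.05 and 1 called by DESeq2.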

How the results depend on the processing

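Of 1880 alternative values for 118 results, 1743 kept their direction and their side of the threshold, 95 lost the call, 22 gained one and 20 changed sign. The replicate block, an alternative in which the replicate number was a term, lost no call and raised the count of the 8 genes called in LM against DE(b) from 3 to 5 and in the interaction of day 1 and day 2 from 0 to 2. The correlation of deviations between same-numbered samples ran from -0.172 to 0.531 over 136 pairs of conditions, with 89 over 0.1 and a median of 0.142. The labels do not say what the number marks, and not every pair was over 0.1, which was the condition for treating the numbers as pairs, so a shared effect of the number is not excluded and the block is given as an alternative. The interaction count was 1 by DESeq2, 2 with no filter on low counts and 1 with only the libraries compared. With only the libraries compared, PPS against DE(a) called 2 at 24 h and 0 in PM, and the joint day 1 test called 0 in PM and 0 in LM. This fit has fewer samples.

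With each library left out in turn, the counts of the 8 genes called were 3 to 5 for 24 h against control, 3 to 4 for DE(b), 4 to 5 for PM and 7 for LM against 24 h, 3 to 5 for PM and 3 to 4 for LM against DE(b), and 5 for LM against PM. The counts for PM and LM against 24 h include DNMT3L, which passed the filter only where it is highest. The counts out of 7 given above leave it out. For PPS against DE(a) they were 2 to 3 at 24 h, 1 to 2 in DE(b), 0 to 1 in PM and 0 to 2 in LM, and for the joint test 3, 1 to 2, 0 to 1 and 0 to 2 in the same order, and 0 for the interaction.

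The estimates that changed sign were all uncalled. With each library left out they ran from -0.171 to 0.0479 for TET1 in DE(b) against 24 h, from -0.0064 to 0.1011 for DNMT1 and -0.0159 to 0.1531 for TET2 in PM against 24 h, from -0.0542 to 0.0214 for DNMT3A and -0.0918 to 0.0191 for UHRF1 in LM against DE(b), and from -0.1099 to 0.0301 for TET3 in LM against PM. For PPS against DE(a) they ran from -0.1844 to 0.1832 for DNMT1 and -0.4276 to 0.4479 for TET1 at 24 h, -0.4782 to 0.1086 for TET3 in DE(b), and -0.0988 to 0.3075 for DNMT1 and -0.1566 to 0.379 for UHRF1 in PM, with -0.0001 for DNMT1 at 24 h under the replicate block. The cause was not tested. With only the libraries compared, TET1 at 24 h against control had an adjusted p of 0.0637.

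Over all genes, PPS against DE(a) called 2439 at 24 h and 167 in PM with only the libraries compared, against 3749 and 1541, and the joint test called 1904 at 24 h and 272 in PM, against 3359 and 1337. The joint test in PM called 2528 with no filter and 2044 by DESeq2, and the interaction 4091 and 3650 against 2351. With CPM on TMM library sizes the range of condition means was 1.89-fold for DNMT1 and 2.20-fold for TET3. DNMT3L is limited by depth, and 2 libraries per condition limit the single comparisons. With a pseudocount of 0.1, DNAJB6 took the place of PRDM14 among the genes most like DNMT3B, and PPFIA3 that of CA8 for TET1.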
